A study of Homo sapiens with 12 samples.

Results

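The circadian clock of human cells is a feedback loop of transcription. CLOCK and BMAL1 bind E-box sequences and raise the PER and CRY genes, whose proteins return to block them. BHLHE40 (also called DEC1) competes at E-boxes as a repressor, NR1D1 and NR1D2 (the REV-ERB receptors) repress BMAL1, and DBP activates genes through D-boxes. PER1 and PER2 are also known to respond to signals outside the loop, through CREB at cyclic AMP response elements.

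Here 9 clock genes (BHLHE40, PER1, PER2, PER3, CRY1, CRY2, NR1D1, NR1D2 and DBP) were followed in HSC-3 cells, an established line from a human squamous carcinoma of the mouth. They were chosen by name, and each was read at 2 kinds of row of the count files: its own, and that of the feature with the most reads that shares 30 or more exonic bases with it on the other strand. For BHLHE40 that feature is BHLHE40-AS1. This gave 15 rows, 9 own and 6 opposite, out of 60675 gene rows. The other strand was read because reads in these counts lie mostly across from coding exons. Of 2586 coding genes with a noncoding feature opposite (30 or more shared exonic bases, at least 100 reads over both rows), 1861 (72.0%) had more reads at that feature than at their own row, and so did BHLHE40, PER2 and CRY1. Which strand the kit reads is not stated in the sources used here, so an own row may hold reads of genes across from it, and an opposite row those of the clock gene. An opposite row cannot separate the antisense transcript from the gene across from it. The 3 groups, of 4 libraries each, were cells kept for 3 hours in 25 µM CPA (cyclopiazonic acid) together with synta-66, cells kept in CPA alone for that time, and untreated cells. CPA blocks the SERCA pump that refills the calcium store of the endoplasmic reticulum, and synta-66 inhibits the ORAI channels through which calcium then enters. The sources used here state no dose of synta-66, and cells with the inhibitor but without CPA were not analysed here. The labels name no separate cultures for the libraries of a group, so a p-value reflects only how these samples spread, and that spread may be technical.

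The libraries held 2819486 to 5458858 reads assigned to genes, which were 3.58% to 9.4% of uniquely aligned reads. In 3 libraries, CPA with synta-66 replicates 1 and 4 and untreated replicate 3, mitochondrial ribosomal RNA took 39.6% to 53.5% of gene reads, against at most 11.8% in the other 9. Results are therefore also given without these 3 where they change. Of 12 epithelial marker genes 11 had a row of at least 1 CPM (read counts relative to library size, scaled by the trimmed mean of M-values), the exception being TP63. None of 7 fibroblast and 3 endothelial markers reached this, and 1 of 5 immune markers did (CD68). Most of these markers had no feature on the other strand, where reads mostly lie. Their low own rows therefore do not show that the genes were silent, and the check of cell identity is weak.

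The promoters of the 3 genes whose opposite rows changed with CPA are shown because the clock and CREB act through short sites in such regions. Each runs 250 bases before to 50 bases after a RefSeq transcript start (GRCh38.p14), in the direction of the gene. Capitals mark matches, found on either strand, to 4 motifs. The canonical E-box bound by CLOCK and BMAL1 has the letters CACGTG. A variant known from PER2, called here the E-box variant, differs in its last letter and reads CACGTT. The core of the site that CREB recognises reads TGACG. The D-box bound by DBP was searched as TTANGTAA.
BHLHE40: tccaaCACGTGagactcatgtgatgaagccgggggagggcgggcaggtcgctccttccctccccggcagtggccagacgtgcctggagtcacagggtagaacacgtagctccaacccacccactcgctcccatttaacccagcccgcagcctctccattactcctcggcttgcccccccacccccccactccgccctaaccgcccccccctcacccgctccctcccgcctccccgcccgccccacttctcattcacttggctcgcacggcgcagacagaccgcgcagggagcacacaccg
PER2: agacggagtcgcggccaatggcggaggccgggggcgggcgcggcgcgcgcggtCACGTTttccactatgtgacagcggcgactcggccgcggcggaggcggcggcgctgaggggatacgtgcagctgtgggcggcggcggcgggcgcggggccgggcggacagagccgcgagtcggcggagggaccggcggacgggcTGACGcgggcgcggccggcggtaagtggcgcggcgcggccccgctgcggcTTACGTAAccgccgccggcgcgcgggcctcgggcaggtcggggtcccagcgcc
CRY1: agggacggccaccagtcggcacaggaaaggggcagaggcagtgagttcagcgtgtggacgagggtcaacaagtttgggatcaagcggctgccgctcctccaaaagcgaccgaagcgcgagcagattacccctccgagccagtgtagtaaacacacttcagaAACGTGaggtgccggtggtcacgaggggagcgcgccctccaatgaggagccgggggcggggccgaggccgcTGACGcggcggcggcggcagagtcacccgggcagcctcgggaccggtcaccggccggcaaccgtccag
The BHLHE40 window (chr3:4979187-4979486, plus strand) held 1 canonical E-box and none of the other 3 motifs. The PER2 window (chr2:238288561-238288860, minus strand), at a RefSeq start that lies inside the GENCODE gene, held the E-box variant, the CREB core and, across the start, a D-box. The CRY1 window (chr12:107093500-107093799, minus strand) held the E-box variant, on the other strand from the gene, and the CREB core. No 2 matches overlapped in these windows. Of all 35116 promoter windows of this length, 7.26% held the canonical E-box, 5.34% the variant, 24.6% the CREB core and 2.18% the D-box. Over 12 windows of the 9 clock genes, the canonical E-box occurred for 3 genes, the variant and the CREB core for 4 each and the D-box for 3. These matches describe the letters and show no binding.

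For BHLHE40, PER2 and CRY1 little of the opposite feature lies across from the clock gene itself, as the map of exons shows. BHLHE40-AS1 (chromosome 3, 4896806 to 4980414, minus strand) overlaps exons of BHLHE40 (chromosome 3, 4979437 to 4985323, plus strand) by 451 bases near its start, of which 182 are coding. That is 8.4% of the 5370 exonic bases of BHLHE40-AS1 in GENCODE 44. The PER2 gene (chromosome 2, 238244044 to 238290102, minus strand) was read at the noncoding ENSG00000225057 (chromosome 2, 238231684 to 238255633, plus strand), which overlaps its last exon, 23 of 23, by 188 bases, 101 of them coding. That is 4.83% of the feature's exons. CRY1 (chromosome 12, 106991364 to 107093549, minus strand) was read at the noncoding ENSG00000257548 (chromosome 12, 107093298 to 107123314, plus strand). The overlap is 94 noncoding bases of its exon 1, between 158 and 251 bases from the gene's start, and 18.7% of the feature's exons. For PER3, UTS2, the gene of the peptide urotensin, overlaps the last exon by 868 bases. THRA, a thyroid hormone receptor gene, overlaps the last exon of NR1D1 by 473 bases. SPHK2, a sphingosine kinase gene, overlaps the last exon of DBP by 661 bases. PER1, CRY2 and NR1D2 had no such feature.

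**Figure D1:**
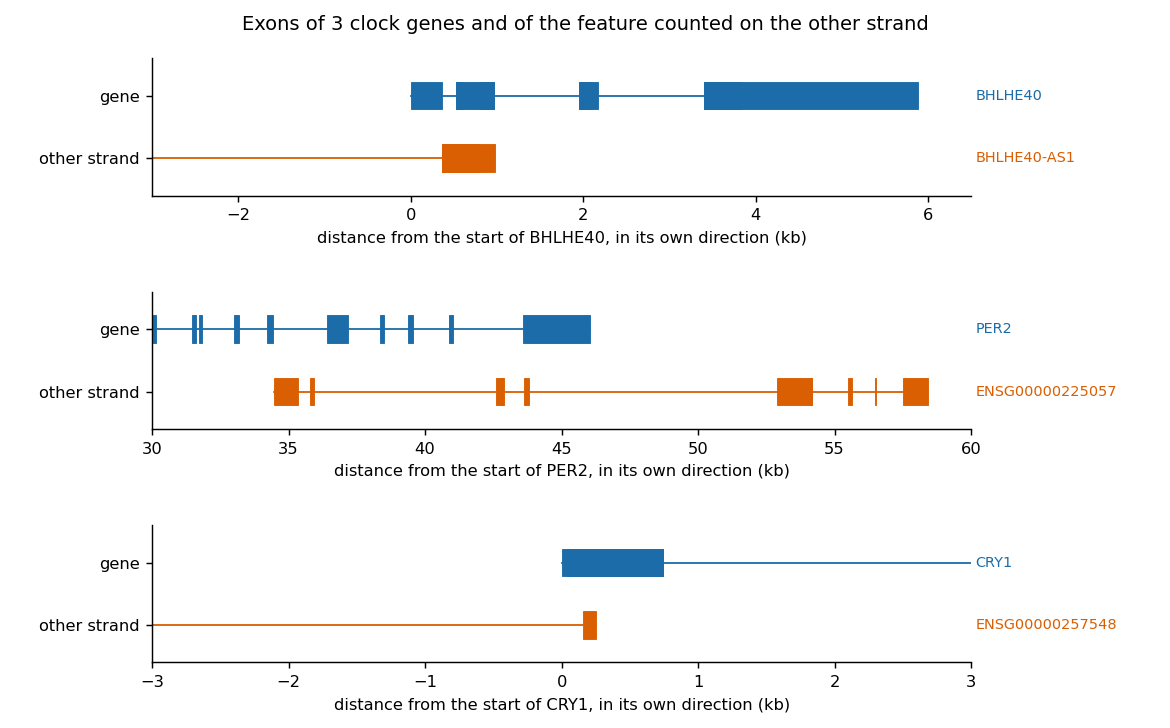
Exons (boxes) of BHLHE40, PER2 and CRY1 in blue and of the feature counted on the other strand in orange, drawn by distance in kb from the start of the gene. The shared stretch is 451 bases near the start of BHLHE40, 188 bases in the last exon of PER2 and 94 bases in the first exon of CRY1, and both BHLHE40-AS1 and ENSG00000257548 run on past the left edge.

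The own rows of the clock genes held few reads. Over the 12 libraries PER1 had 8 reads, PER3 had 2, CRY2 had 4, and PER2 and NR1D2 had 29 each. BHLHE40 had 42 and CRY1 had 67. NR1D1 had 207 and DBP 1272, but these rows lie opposite THRA and SPHK2 and cannot be separated from them. The opposite rows held 359 reads for BHLHE40, 410 for PER2, 768 for PER3, 952 for CRY1, 174 for NR1D1 and 474 for DBP. Of the 15 rows 9 had 5 reads or more in 2 of the 4 libraries of any group, the filter used: all 6 opposite rows and the own rows of CRY1, NR1D1 and DBP. PER1, CRY2 and NR1D2 therefore have no test here. Per kb of GENCODE 44 exon, the untreated level was highest at the row opposite CRY1, with 26.5 ± 5.05 CPM per kb (SD, n = 4). Then came UTS2 for PER3 with 7.62 ± 1.17, DBP itself with 4.05 ± 0.958, SPHK2 with 1.93 ± 0.359, NR1D1 itself with 1.69 ± 0.298 and the row opposite PER2 with 1.23 ± 0.347 CPM per kb. BHLHE40-AS1 had 0.499 ± 0.325, THRA 0.362 ± 0.122 and CRY1 itself 0.172 ± 0.225 CPM per kb. SPHK2, NR1D1 itself and the row opposite PER2, which follow each other in this order, did not differ from their neighbours among the 3 beyond their spread, and nor did BHLHE40-AS1, THRA and CRY1 itself. Each length was that of all exons of the counted feature, not of the stretch shared with the clock gene. The order is therefore one of counted rows and not of clock gene levels.

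**Figure D2:**
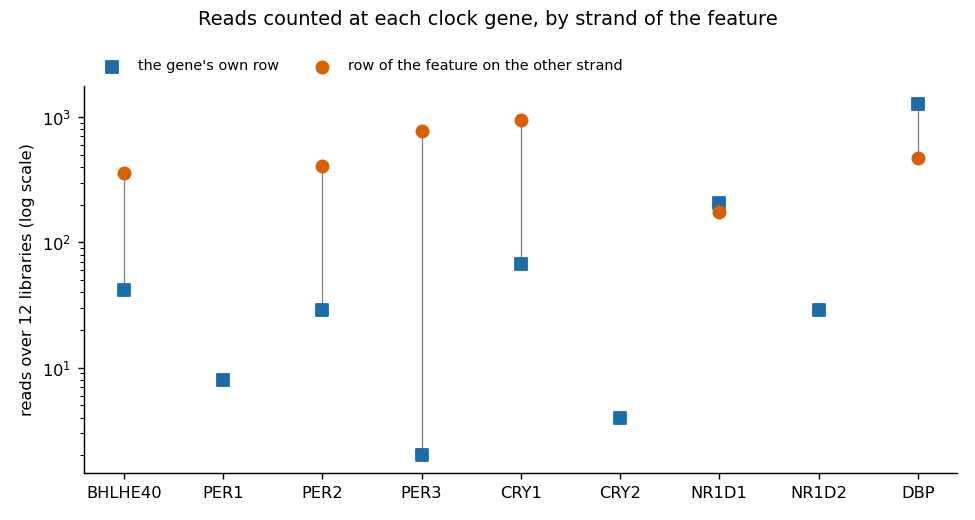
Reads summed over the 12 libraries (log axis) at the own row of each clock gene (blue squares) and at the feature on the other strand (orange circles) where there is one. For BHLHE40, PER2, PER3 and CRY1 the opposite row held more reads, with 359, 410, 768 and 952, against 42, 29, 2 and 67 at the own row.

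CPA against untreated asks how the clock gene rows differ between cells kept in CPA and untreated cells. Calcium in the store was not measured in these counts. The titles of the untreated samples name no vehicle and no time, so effects of either cannot be told apart from those of CPA. With CPA, BHLHE40-AS1, opposite BHLHE40, rose about 5-fold. The row opposite PER2 rose 2.27-fold and that opposite CRY1 1.77-fold, and no clock row was called lower. Thus 3 of the 9 rows tested were higher, where 1.8% of all 14911 features were higher, 1.05% lower and 2.85% changed in either direction. A call needed a change of at least 1.5-fold and, in the quasi-likelihood test of edgeR, an adjusted p (Benjamini-Hochberg, over all features) under 0.05. The genes were chosen with earlier results for some of them known, so the share is a description. In such bulk RNA, more cells with a transcript and more of it per cell cannot be told apart.

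BHLHE40, the E-box repressor, had 12.4, 10.5, 15.1 and 14 CPM at BHLHE40-AS1 in CPA libraries, against 1.67, 1.6, 2.19 and 5.27 CPM in untreated libraries. Every CPA library was above every untreated one. Behind them were 48, 45, 74 and 65 reads in CPA libraries and 8, 8, 7 and 18 in untreated libraries. This was a log2 fold change of 2.32 ± 0.40 (SE, adjusted p = 8.53e-05 in the edgeR test). Leaving out any 1 library kept the call, with log2 fold changes of 2.12 to 2.84, the highest without untreated replicate 4. The own row of BHLHE40, too low to be tested, had 0, 2, 12 and 4 reads with CPA and 2, 4, 4 and 9 reads in untreated cells.

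The rows of the BHLHE40 locus were also set against each other. The log2 ratio of the opposite to the own row averaged 3.50 ± 0.93 in CPA libraries and 0.86 ± 0.28 in untreated libraries (SD, n = 4 each), a difference of 2.64 with 0.5 CPM added to each row and of 3.30 with 0.1 CPM added. With CPA and synta-66 the ratio averaged 3.06 ± 1.15, a difference of 2.21 from untreated (3.33 with 0.1 CPM added). In exact two-sided permutation tests both differences gave p = 0.0286, the smallest that 4 against 4 libraries allow. Adjusted over 18 pairs of gene and comparison each was 0.257, and a design of this size could hardly pass that adjustment. The other loci had no unadjusted p under 0.05 for CPA against untreated. With 0.5 CPM added, their differences were -0.05 for PER2, -0.61 for CRY1, 0.04 for PER3, 0.29 for NR1D1 and -0.35 for DBP. With 0.1 CPM added they were -1.32 for PER2, -1.39 for CRY1, -0.35 for PER3, 0.34 for NR1D1 and -0.36 for DBP. The PER2, CRY1 and PER3 values thus depend on the amount added. The own row of BHLHE40 held few reads, so the size of its ratio is uncertain.

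PER2, a core repressor of the loop, had 12.4, 11.4, 9.21 and 11 CPM at its opposite row in CPA libraries, against 5, 5.4, 2.81 and 5.86 CPM in untreated libraries. The lowest CPA library was above the highest untreated one. In the fit the row opposite PER2 had a log2 fold change of 1.19 ± 0.32 (adjusted p = 0.0221 in the edgeR test). The call was lost when untreated replicate 1 (adjusted p = 0.0527), untreated replicate 3 (adjusted p = 0.0899) or CPA replicate 1 (adjusted p = 0.0578) was left out, and without the 3 libraries rich in ribosomal RNA (1.02 ± 0.33, adjusted p = 0.0724). The own row of PER2 had 0, 2, 3 and 13 reads in CPA libraries and 0 in each untreated library, a count that allows up to 3 reads per library. Most of the CPA reads were in replicate 4.

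CRY1, the partner of the PER proteins, had 18.8, 17.2, 27.6 and 29.8 CPM at its opposite row in CPA libraries, against 12.3, 11.2, 12.8 and 17 CPM in untreated libraries. The groups did not overlap, though the lowest CPA library and the highest untreated library nearly met. The log2 fold change was 0.82 ± 0.21 (adjusted p = 0.0142 in the edgeR test). The adjusted p was 0.0547 without untreated replicate 1, 0.0701 without untreated replicate 2, 0.0755 without CPA replicate 3 and 0.0995 without CPA replicate 4. The own row of CRY1 had 4, 12, 12 and 16 reads with CPA and 0, 12, 1 and 2 in untreated cells, with a log2 fold change of 1.48 ± 0.90 (adjusted p = 0.476), which was 2.99 without untreated replicate 2 (adjusted p = 0.184). Only the CPA libraries took this own row past the read filter, so its higher level there is partly a matter of selection.

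The other clock rows did not pass the test for CPA against untreated. PER3 was read at UTS2 with 17.3 ± 4.43 CPM in CPA libraries and 13.7 ± 2.10 CPM in untreated libraries (SD, n = 4 each), a log2 fold change of 0.33 ± 0.24 (adjusted p = 0.571). A further feature opposite PER3, ENSG00000236266, had the other sign, -0.34 ± 0.26 (adjusted p = 0.616). The rows of NR1D1, the haem receptor of the loop, had 0.19 ± 0.46 at the own row and 0.49 ± 0.50 at THRA (adjusted p = 0.912 and 0.733). Those of DBP had 0.15 ± 0.19 at the own row and -0.21 ± 0.28 at SPHK2 (adjusted p = 0.801 and 0.809). All of these are log2 fold changes, and in each the 2 groups overlapped.

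**Figure D3:**
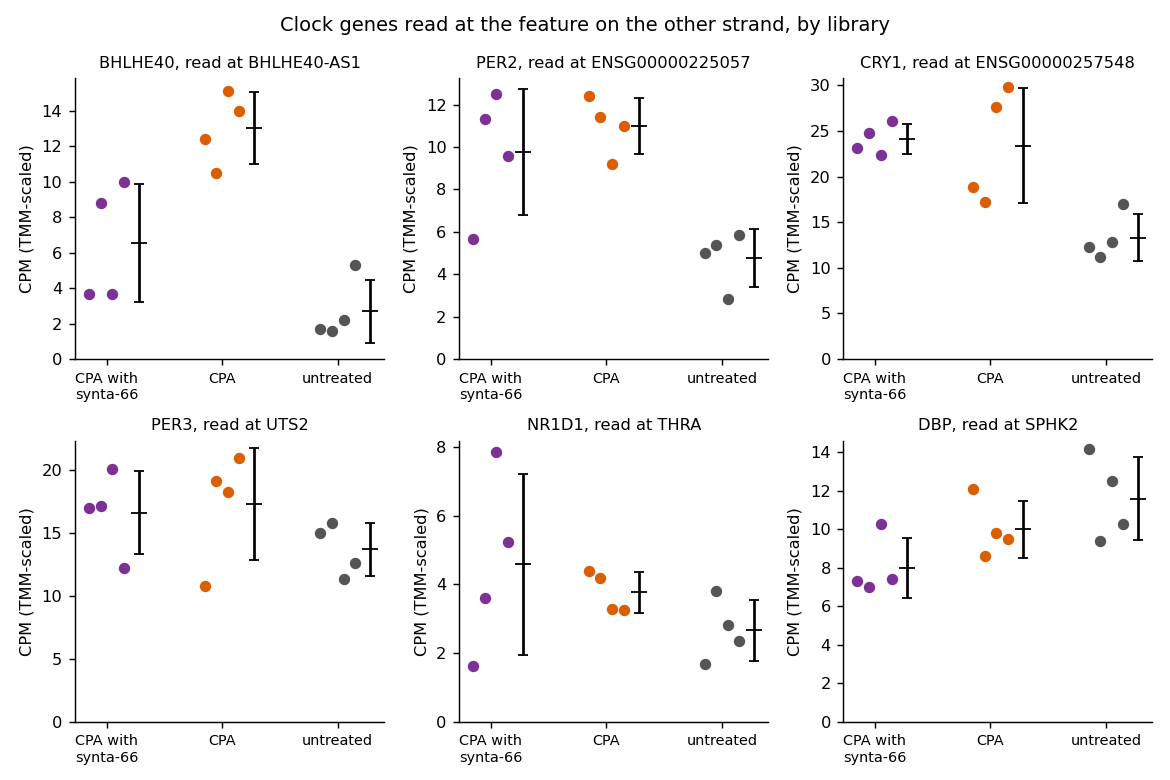
CPM of each library (points) at the row opposite each clock gene, in cells with CPA and synta-66, with CPA and untreated, with the mean ± SD of 4 libraries in black. At BHLHE40-AS1 the CPA libraries lie between 10.5 and 15.1 CPM, above the other 2 groups, while at the rows opposite PER2 and CRY1 both treated groups have higher means than the untreated one.

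The second comparison asks what the ORAI inhibitor altered. No clock row passed the test for CPA with synta-66 against CPA, where 1.94% of all features were higher, 2.82% lower and 4.76% changed in either direction. Of the 9 rows tested, 1 (BHLHE40-AS1) had an unadjusted p under 0.05 in edgeR, where 19.0% of all features did. DESeq2 called 0. BHLHE40-AS1 had 3.65, 8.79, 3.69 and 10 CPM with synta-66, against 12.4, 10.5, 15.1 and 14 CPM with CPA alone. The groups did not overlap, though the highest synta-66 library came close to the lowest CPA library. BHLHE40-AS1 had a log2 fold change of -1.0 ± 0.37, with an unadjusted p of 0.0101 and an adjusted p of 0.0983 in the edgeR test. Over single libraries left out it lay between -1.24 and -0.78, with adjusted p of 0.0586 to 0.29.

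Neither the row opposite PER2 nor that opposite CRY1 had a called change with synta-66 against CPA alone. The row opposite PER2 had 5.68, 11.3, 12.5 and 9.57 CPM with synta-66, against 12.4, 11.4, 9.21 and 11 CPM with CPA alone. Its lowest library was replicate 1, the one richest in mitochondrial ribosomal RNA, and the groups overlapped. The log2 fold change was -0.15, with an approximate 95% interval of -0.76 to 0.46 (adjusted p = 0.869). The row opposite CRY1 had 23.1, 24.8, 22.4 and 26.1 CPM with synta-66, against 18.8, 17.2, 27.6 and 29.8 CPM with CPA alone. All 4 synta-66 libraries fell inside the range of the CPA libraries. The log2 fold change was 0.04, with an interval of -0.37 to 0.45 (adjusted p = 0.959). The PER2 interval includes a level lower by 1.5-fold, so equal levels are not shown there. Whether the row opposite PER2 and BHLHE40-AS1 differ in their response to synta-66 was not tested.

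Among the remaining rows, the own row of CRY1 had the largest log2 fold change in size, -1.89 ± 0.97 (adjusted p = 0.283), from 0, 2, 2 and 4 reads with synta-66 against 4, 12, 12 and 16 with CPA alone. Without CPA with synta-66 replicate 4 it was -2.71 (adjusted p = 0.164). The own row of CRY1 passed the read filter only through the CPA libraries, where it was highest, so its size is no support for a change. DBP had -0.36 ± 0.20 at its own row and -0.31 ± 0.29 at SPHK2 (adjusted p = 0.328 and 0.64). NR1D1 had -0.63 ± 0.47 at its own row and 0.30 ± 0.49 at THRA (adjusted p = 0.525 and 0.818). The NR1D1 own row was lowest in synta-66 replicates 1 and 4, rich in ribosomal RNA (2.03 and 0.435 CPM, against 4.73 and 4.91 CPM). Under alternatives other than single libraries left out, the change ran from -0.73 to -0.09 there and from 0.19 to 0.57 at THRA. UTS2, for PER3, had -0.04 ± 0.24 (adjusted p = 0.955). None of these log2 fold changes passed the test, and their groups overlapped.

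**Figure D4:**
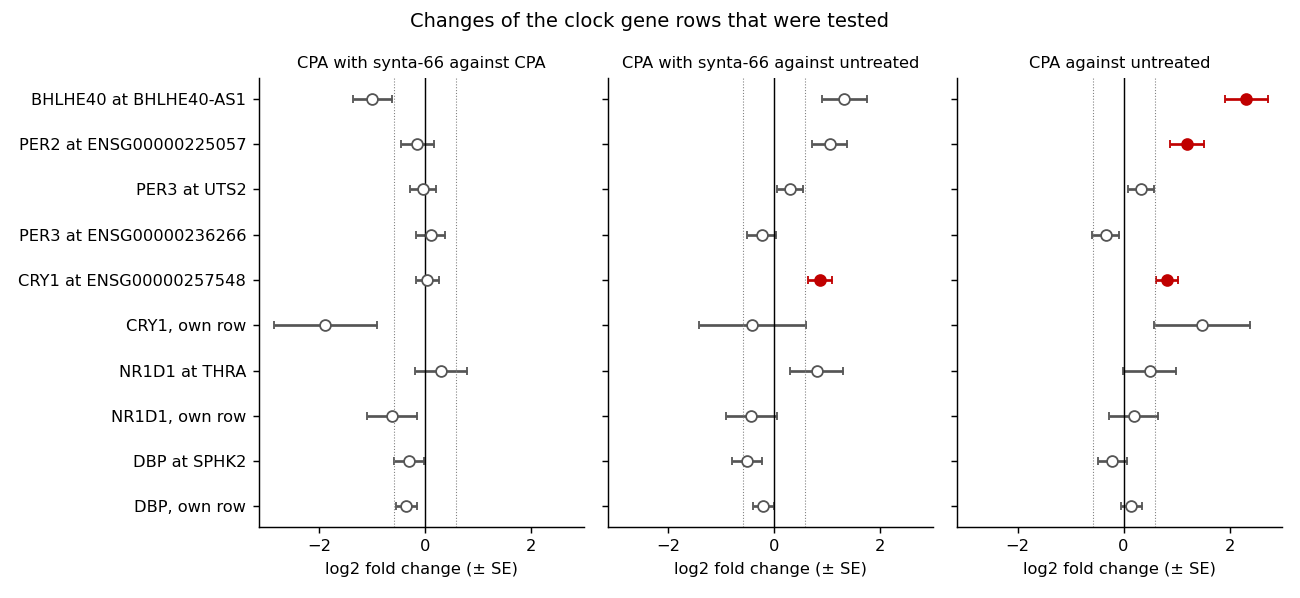
Log2 fold changes with SE from the edgeR fit for the 9 tested rows and the further feature opposite PER3, in 3 comparisons, with red filled points for calls, open points for the rest and dotted lines at 1.5-fold. BHLHE40, PER2 and CRY1 are called at their opposite rows for CPA against untreated (2.32, 1.19 and 0.82), CRY1 alone when CPA with synta-66 is set against untreated (0.86), and none when it is set against CPA.

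The third comparison sets CPA with synta-66 against untreated cells. It shares its libraries with the other 2, so the values stand side by side and are not independent. The row opposite CRY1 rose, with 23.1, 24.8, 22.4 and 26.1 CPM with CPA and synta-66, against 12.3, 11.2, 12.8 and 17 CPM in untreated cells. The groups stood well apart. On the log2 scale the change was 0.86 ± 0.22 (adjusted p = 0.0123 in the edgeR test), and this was the 1 row of 9 called, where 1.66% of all features were higher, 1.24% lower and 2.9% changed in either direction. The call was lost without untreated replicate 2 (adjusted p = 0.0618) and without the 3 libraries rich in ribosomal RNA (0.79 ± 0.28, adjusted p = 0.15).

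BHLHE40-AS1 and the row opposite PER2 were not called in the same comparison. BHLHE40-AS1 averaged 6.53 ± 3.34 CPM with CPA and synta-66 and 2.68 ± 1.75 CPM in untreated cells (SD, n = 4 each), a log2 fold change of 1.32 ± 0.42 (adjusted p = 0.0706). The row was called when untreated replicate 4 was left out (1.84, adjusted p = 0.00738), and likewise for CPA with synta-66 replicate 1 (1.50, adjusted p = 0.0389) or CPA with synta-66 replicate 3 (1.53, adjusted p = 0.0354). With other single libraries left out its adjusted p in edgeR reached 0.248, and under the other alternatives 0.261. The row opposite PER2 averaged 9.76 ± 2.98 CPM with CPA and synta-66 and 4.77 ± 1.35 CPM in untreated cells, a log2 fold change of 1.04 ± 0.33 (adjusted p = 0.07). It was called without CPA with synta-66 replicate 1 (1.21, adjusted p = 0.0296). Its adjusted p in edgeR was 0.226 without CPA with synta-66 replicate 3. Without the 3 libraries rich in ribosomal RNA it was 0.132. DESeq2 called both BHLHE40-AS1 and the row opposite PER2 (adjusted p = 0.0442 and 0.0301). The mean of BHLHE40-AS1 with synta-66 thus lay between those of the other groups, 6.53 CPM against 13 CPM with CPA alone and 2.68 CPM untreated.

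**Figure D5:**
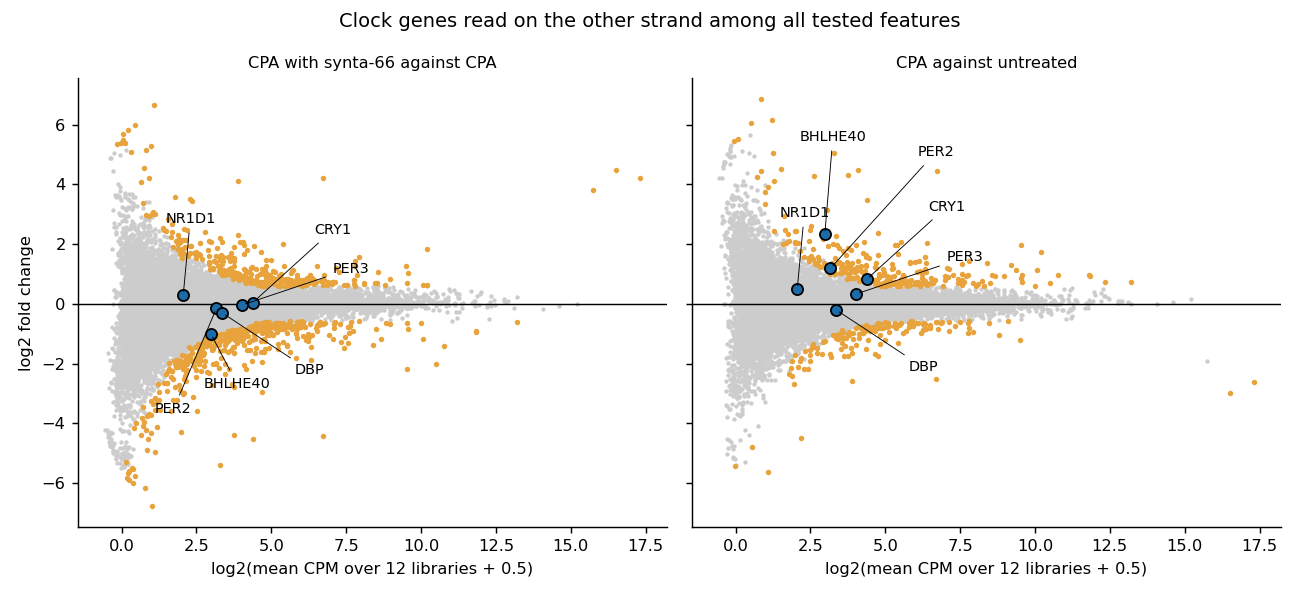
Log2 fold change against log2 mean abundance for the 14911 tested features, with called features in orange and the opposite rows of 6 clock genes in blue, labelled by the gene. For CPA against untreated BHLHE40 (2.32), PER2 (1.19) and CRY1 (0.82) lie among the called features, and for CPA with synta-66 against CPA all 6 lie among the features not called.

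Beyond these 9, a list of 41 other clock and clock-linked genes was examined: the activators, the ROR receptors, kinases and ubiquitin ligases of the PER and CRY proteins, and outputs. Of 29 own rows and 14 opposite rows tested, none was called in edgeR in any of the 3 comparisons, where 2.85%, 4.76% and 2.9% of all features were called for CPA against untreated, CPA with synta-66 against CPA and CPA with synta-66 against untreated. With 43 rows, 0 calls is near these shares. At an unadjusted p under 0.05 there were 5 own and 4 opposite rows for CPA against untreated, 5 and 2 between CPA with synta-66 and CPA, and 7 and 1 between CPA with synta-66 and untreated, against 15.1%, 19.0% and 14.4% of all features in these comparisons. Of the activator genes, named here after their values were seen, CLOCK, at its own row, had 0.41 ± 0.19 (adjusted p = 0.293) and BMAL1 had 0.31 ± 0.19 (adjusted p = 0.484) on the log2 scale for CPA against untreated. The median log2 fold change in that comparison was -0.06 over the own rows and 0.10 over the opposite rows, against -0.0067 over all features. DESeq2 called 1 opposite row for CPA against untreated and 1 own row, of the kinase gene PRKAA1, for CPA with synta-66 against CPA (-2.24 ± 0.77, adjusted p = 0.033). The PRKAA1 row was low, with means of 0.97 CPM with CPA and synta-66 and 4.32 CPM with CPA, and adjusted p = 0.0712 in edgeR.

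The opposite row called by DESeq2 was SSPN, which lies across from BHLHE41 (DEC2), the paralogue of BHLHE40. SSPN had 12.9, 4.42, 7.16 and 9.93 CPM in CPA libraries, against 5, 2.6, 2.81 and 4.1 CPM in untreated libraries, and the groups overlapped. The log2 fold change was 1.23 ± 0.40, with adjusted p = 0.0728 in edgeR and 0.037 in DESeq2. The following rows were picked after their values were seen, because they passed the adjusted p but not the fold minimum. BMAL2-AS1, opposite the CLOCK partner BMAL2, averaged 242 ± 12.0 CPM with CPA and 193 ± 19.1 CPM untreated (0.32 ± 0.09, adjusted p = 0.0197), and 194 ± 6.01 CPM with CPA and synta-66 (-0.31 ± 0.09 against CPA, adjusted p = 0.0188). The row of CSNK1D, the gene of a casein kinase that phosphorylates PER proteins, averaged 329 ± 15.1 CPM with CPA and 263 ± 13.6 CPM untreated (0.32 ± 0.08, adjusted p = 0.00811). With CPA and synta-66 it averaged 233 ± 4.18 CPM (-0.50 ± 0.08 against CPA, adjusted p = 2e-05). Across from CSNK1D, the feature with the most reads, ENSG00000280407, averaged 157 ± 5.79 CPM with CPA and 180 ± 7.17 CPM untreated (-0.19 ± 0.09, adjusted p = 0.275), and 153 ± 2.01 CPM with CPA and synta-66 (-0.04 ± 0.09 against CPA, adjusted p = 0.873). The rows on the 2 strands of CSNK1D thus had log2 fold changes of opposite sign for CPA against untreated, and which of them reads CSNK1D was not tested. The coding gene SLC16A3 also lies across from CSNK1D, with 482 shared exonic bases. The CSNK1D row may therefore hold reads of SLC16A3 and cannot be separated from it.

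The features most like the clock rows over the 12 libraries were found by Pearson's r of log2(CPM + 0.5) among 6356 features with a mean of at least 5 CPM. These r are descriptions of points that share their groups and their library scaling. For BHLHE40-AS1 the 5 highest were FBXL6 (r = 0.955), DENND1C (0.907), DYRK3-AS1 (0.902), MVK (0.9) and the noncoding ENSG00000254680 (0.897). FBXL6 averaged 316 CPM with CPA and synta-66, 376 CPM with CPA and 250 CPM untreated, so its order over the groups was that of BHLHE40-AS1. For the row opposite PER2 they were ENSG00000272256 (0.918), SMTN (0.906), ENSG00000272625 (0.883), ENSG00000281656 (0.882) and SYNE1-AS1 (0.881). ENSG00000272256 averaged 197, 200 and 145 CPM in the same order of groups, with both treated groups above the untreated one. The rows opposite PER2 and CRY1 had r = 0.755 and r = 0.787 with BHLHE40-AS1, and r = 0.677 with each other.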

How the data were processed

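RNA of 12 HSC-3 libraries was measured, 4 in each of 3 groups taken from the sample titles. Each deposited file lists raw counts per gene, which the authors had not normalized. Per the labels' protocols reads were trimmed with Trimmomatic 0.32 (0.36 per the submitters' processing notes), aligned with STAR 2.5.2a to GRCh38 with Ensembl 84, and counted with HTSeq 0.6.1p1 as a stranded library. The sources used here name no library kit. The 5 closing rows of each file, of unassigned reads, were left out. Between 3.58% and 9.4% of uniquely aligned reads were assigned to genes, so the clock rows rest on few reads, and this limits the precision.

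Exon overlaps came from GENCODE 44 (GRCh38), where 56558 of 60675 gene IDs matched. Its gene models can differ from those counted. The test was that of edgeR 4.0.16, run in R 4.3.3 (scaling by TMM, features with 5 reads or more in 2 of the 4 libraries of any group, 1 quasi-likelihood fit of 12 libraries by group, Benjamini-Hochberg adjustment over 14911 features). Calls needed adjusted p under 0.05 and 1.5-fold, the study's thresholds. CPM use TMM-scaled totals. Ratios of opposite to own rows used log2 with 0.5 CPM added to each, and an exact permutation test in SciPy 1.17.1. The steps were tested on simulated data. Alternatives were DESeq2 1.42.0, other scalings, filters and fits, libraries left out, the replicate number as a block, an overlap of 100 bases and a pseudocount of 0.1 CPM.

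The named genes are the 9 clock genes whatever their values, called rows of 2 lists where the mean reached 1 CPM, and the 5 features most like BHLHE40-AS1 and the row opposite PER2. CLOCK, BMAL1, CSNK1D with its opposite features, BMAL2-AS1, and SSPN, PRKAA1 and CRTC2, called by DESeq2 only, fall outside this rule and were chosen after their values were seen. Members and lists were chosen with earlier results of these data known. No 2 libraries held identical counts. Promoters are from RefSeq (GRCh38.p14), where all 9 genes had a window.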

Additional observations from a re-analysis of the deposited data

Results flagged for a closer look

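Of 30 groups of 4 libraries at tested clock rows, 2 held a library far from the other 3 by Dixon's criterion, which chance alone meets in about 1 of 20 groups. BHLHE40-AS1 had 5.27 CPM in untreated replicate 4, against 1.6 to 2.19 CPM in the other untreated libraries. SPHK2, opposite DBP, had 10.3 CPM in CPA with synta-66 replicate 3, against 6.98 to 7.4 CPM in the other libraries of that group.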

How the results depend on the processing

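Of 656 values of the clock rows under alternatives, 628 kept their direction and their side of the threshold, 10 lost a call, 6 gained one and 12 changed sign, all 12 of rows that were not called. For CPA against untreated, the count of clock genes called at opposite rows lay between 1 and 3 with single libraries left out, was 3 under every alternative scaling and filter and in DESeq2, and was 2 without the 3 libraries rich in ribosomal RNA and with an overlap of at least 100 bases. For CPA with synta-66 against untreated the count lay between 0 and 3 with single libraries left out, was 3 in DESeq2, 0 without the 3 libraries rich in ribosomal RNA, and 0 with an overlap of at least 100 bases, since CRY1 then has no opposite row by construction. The cause of the other changes was not tested. Without a minimum fold, 655 features were called for CPA against untreated in place of 425. Signs changed without the 3 libraries rich in ribosomal RNA for CPA with synta-66 against CPA at the rows opposite PER2 (0.08), PER3 (UTS2, 0.07) and CRY1 (-0.03), and at the own row of NR1D1 in CPA with synta-66 against untreated (0.13). With single libraries left out the log2 fold changes for CPA with synta-66 against CPA ran from -0.29 to 0.03 opposite PER2, from -0.21 to 0.07 at UTS2, from -0.09 to 0.17 opposite CRY1 and from -0.11 to 0.56 at THRA. For CPA with synta-66 against untreated the own row of CRY1 ran from -1.23 to 1.11. Same-numbered libraries showed little shared deviation (correlations of -0.0237 to 0.054). The labels do not say whether the numbers pair libraries, and such correlations cannot exclude it. With the replicate block 441, 723 and 418 features were called for CPA against untreated, CPA with synta-66 against CPA and CPA with synta-66 against untreated, where there were 425, 710 and 433, and no call of a clock row changed. No row ratio had an adjusted p under 0.05 under any setting, which says nothing of stability, since the exact test with so few libraries could hardly pass the adjustment over 18. Rows of 7 to 138 reads per library limit what can be detected at BHLHE40-AS1 and opposite CRY1.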

Other observations

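Immediate early genes and genes of the CREB pathway, its regulators included, form a second list of 20, of which 9 own and 8 opposite rows were tested. At the opposite rows 1 of 8 rose with CPA against untreated (1.8% of all features did), NR4A1AS across from the nuclear receptor gene NR4A1, and 2 of 8 were lower with CPA and synta-66 than with CPA alone (2.82% of all features were), NR4A1AS and HOOK2, which lies across from JUNB (-0.66 ± 0.11 on the log2 scale, adjusted p = 2.39e-05 in edgeR). No own row was called in edgeR. At an unadjusted p under 0.05 there were 0 own and 4 opposite rows for CPA against untreated (15.1% of all features). Between CPA with synta-66 and CPA there were 2 and 4 (19.0% of all features). Between CPA with synta-66 and untreated there were 2 and 3 (14.4% of all features). The list was chosen with earlier results of these data known, so these counts are a description. Of the own rows DESeq2 called 1, of the CREB coactivator gene CRTC2, for CPA with synta-66 against untreated (-3.0 ± 1.01, adjusted p = 0.0479). This row lay near the floor, with 0.811, 0, 0 and 0.87 CPM with CPA and synta-66. Untreated libraries had 0.625, 1.2, 5 and 4.39 CPM, and the adjusted p in edgeR was 0.0929. NR4A1AS had 2.03, 1.35, 2.46 and 3.92 CPM with CPA and synta-66, against 45.4, 64.4, 51.4 and 53.3 CPM with CPA alone and 2.5, 4.4, 7.81 and 5.27 CPM in untreated cells. All 4 libraries with CPA alone stood above the others, and the log2 fold change of CPA against untreated was 3.47 ± 0.25 (adjusted p = 8.81e-14 in edgeR). Its libraries with synta-66 thus lay far below those with CPA, by -4.53 ± 0.29 on the log2 scale (adjusted p = 1.37e-15 in edgeR), while the row opposite PER2 had -0.15 ± 0.31 (adjusted p = 0.869) in the same comparison. Whether the 2 rows differ in their change was not tested.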
